A study of Mus musculus with 8 samples.

Results

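Goblet cell secretory products and their regulators were followed as 8 genes, Muc2, Tff3, Fcgbp, Zg16, Agr2, Spdef, Retnlb and Klk1, chosen by gene symbol from the 35963 symbols of the deposited count table. All 8 were present and all 8 passed the filter on low counts that left 15893 genes to test. RNA came from colonic epithelial cells that a buffer had released from the proximal colon of mice aged 4 weeks. The 4 libraries labelled Ccna2-KO came from Ccna2 fl/fl vil-Cre mice, and the 4 WT libraries from Ccna2 fl/fl mice, so both groups carried the floxed Ccna2 alleles and they differed by the Cre transgene. The villin promoter that drives this Cre is active across the intestinal epithelium, so the targeted cells are not goblet cells alone. The comparison asks how the epithelial transcripts differ when cyclin A2, a partner of cyclin-dependent kinases in DNA synthesis and entry into mitosis, is targeted there.

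Goblet cells are the secretory cells of the colonic epithelium that build the mucus layer. Muc2 is the gel-forming mucin that makes up the framework of this mucus, and it is folded and joined by disulfide bonds in the endoplasmic reticulum before it is packed into granules. The lineage is set by the transcription factor Atoh1, and Spdef drives the later maturation of goblet cells. Retnlb, by contrast, encodes an antibacterial protein whose level in the colon is known to vary with microbes and with type 2 immune signals.

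The libraries held between 27162083 and 34386731 estimated counts. The targeted gene did not separate the groups. Ccna2 had 18.2, 26.6, 26.6 and 16.2 CPM (counts scaled to 1000000 per library, with TMM-scaled library sizes) in the libraries labelled Ccna2-KO, against 54.3, 25.9, 11.9 and 18.3 CPM in the WT libraries (two-sided exact permutation test on log2 CPM, p = 0.83, where 0.0286 is the smallest value 4 against 4 can give). The counts are per transcript and no source used here names the deleted exons, so how far this level checks the labels is not known, and every direction below rests on them. The labels do not say that each library is a separate mouse, and the p-values below therefore measure library-to-library spread, which may be technical. The labels also carry a library number. Numbers 595 to 598 (low set) hold Ccna2-KO replicate 4 and WT replicates 2, 3 and 4, and numbers 621 to 641 (high set) hold Ccna2-KO replicates 1, 2 and 3 and WT replicate 1. No source used here says what the numbers record. The set and the genotype overlap in 6 of 8 libraries, so values from a fit that also holds the number set, called set-adjusted, stand beside the main ones. In RNA from mixed epithelium, fewer goblet cells and less RNA per goblet cell cannot be told apart.

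Of the 8 genes, Retnlb was higher in the libraries labelled Ccna2-KO, by a factor of 5.71 between the group means, and the other 7 did not pass the test. The main mucin Muc2 and the mucus proteins Fcgbp, Zg16 and Tff3 averaged 0.915 to 1.09 times their WT means. Agr2, Spdef and Klk1 averaged 0.895, 0.732 and 0.741 times their WT means. The share called, 1 of 8, stands beside 12.1% of all genes tested that were called by edgeR's quasi-likelihood test (Benjamini-Hochberg adjusted p under 0.05), and 6.40% that were called higher. In none of the 8 genes did the 4 values of one group lie wholly outside the range of the other, against 19.0% of all genes tested (3021 of 15893).

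**Figure D1:**
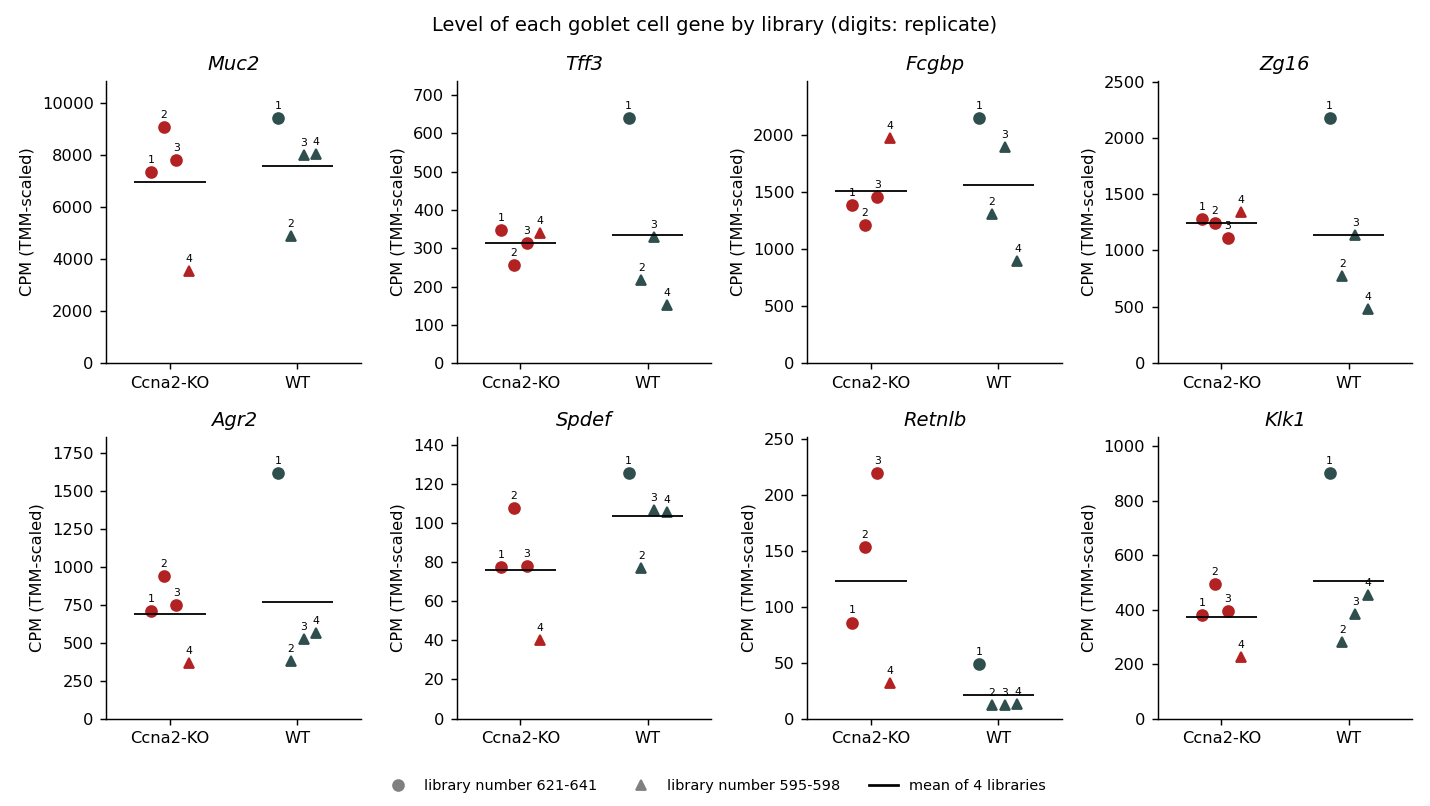
Level of each of the 8 goblet cell genes in CPM on a linear axis from 0, with Ccna2-KO libraries left of WT libraries, digits for replicates, circles for library numbers 621 to 641, triangles for 595 to 598 and a line at each group mean. Retnlb lay at 85.8 to 219 CPM in 3 of the libraries labelled Ccna2-KO and at 11.8 to 12.9 CPM in 3 WT libraries, while the remaining library of each group lay between.

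Retnlb encodes resistin-like molecule beta, a goblet cell protein secreted into the lumen that acts on bacteria. The gene lies on chromosome 16 between positions 48816856 and 48818892 of GRCm38.p6, on the plus strand. It had 85.8, 153, 219 and 32.0 CPM in the libraries labelled Ccna2-KO, against 48.6, 12.5, 11.8 and 12.9 CPM in the WT libraries. Ccna2-KO replicate 4 was the lowest of its group and lay below WT replicate 1, so the groups overlapped by this one pair. In edgeR the log2 fold change came to 2.51 ± 0.65 (SE, adjusted p = 0.0362). The estimated counts behind these values ran from 314 to 7018, so counting error was small beside the spread between libraries. The call ended without Ccna2-KO replicate 1, 2 or 3 or without WT replicate 2, 3 or 4 (adjusted p = 0.0607 to 0.10), and it held without Ccna2-KO replicate 4 (0.0194) or WT replicate 1 (0.0157).

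Retnlb was higher in the libraries labelled Ccna2-KO inside both library number sets. In the high set the 3 libraries labelled Ccna2-KO averaged 153 CPM and the single WT library had 48.6 CPM, a ratio of 3.14. In the low set the single library labelled Ccna2-KO had 32.0 CPM and the 3 WT libraries averaged 12.4 CPM, a ratio of 2.58. Set-adjusted, the log2 fold change was 1.51 ± 0.30 (adjusted p = 0.0128), smaller than the unadjusted value. With a lone library of one genotype in each set, the sets were not tested separately. Among relatives whose reads could be shared, Retnla had 34 counts over the libraries labelled Ccna2-KO and 47 over the WT libraries, and Retn and Retnlg had 0 and 2 counts over all 8 libraries.

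Muc2 lies on chromosome 7 between positions 141690340 and 141754691, on the plus strand. It was the most counted of the 8 genes and held 0.333% to 0.943% of all gene counts in the libraries labelled Ccna2-KO and 0.473% to 0.978% in the WT libraries. It had 7351, 9060, 7793 and 3538 CPM in the libraries labelled Ccna2-KO, against 9416, 4895, 7973 and 8027 CPM in the WT libraries. Ccna2-KO replicate 4 and WT replicate 2, both of the low number set, were the lowest of their groups, and the other 6 libraries lay between 7351 and 9416 CPM. The means were 6936 ± 2378 and 7578 ± 1909 CPM (SD, n = 4 each), with a log2 fold change of -0.13 ± 0.29 (SE; adjusted p = 0.834). An interval of 2 SE reached from -0.71 to 0.46, so changes within that range were not excluded.

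Fcgbp, Zg16 and Tff3 encode other mucus proteins. Fcgbp encodes a large protein with von Willebrand domains that binds to the Muc2 network, and it lies on chromosome 7 between 28071236 and 28120864. It had 1386, 1208, 1457 and 1970 CPM in the libraries labelled Ccna2-KO, against 2148, 1302, 1896 and 895 CPM in the WT libraries. The WT values reached both higher and lower than those of the libraries labelled Ccna2-KO, and the log2 fold change was -0.05 ± 0.27 (adjusted p = 0.932).

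Zg16, on chromosome 7 between 127050156 and 127052675, encodes a small lectin that binds the cell wall of Gram-positive bacteria. It had 1276, 1241, 1111 and 1343 CPM in the libraries labelled Ccna2-KO, against 2178, 772, 1135 and 479 CPM in the WT libraries. The libraries labelled Ccna2-KO lay close together (SD 97.3 CPM, against 742 CPM in WT), and all 4 fell inside the WT range. The log2 fold change was 0.12 ± 0.38 (adjusted p = 0.883). Its 2 annotated transcripts, NM_026918.2 and XM_006508175.3, took 32.5% and 67.5% of its counts, and tested alone they had log2 fold changes of 0.19 ± 0.44 and 0.10 ± 0.42.

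Tff3 encodes a trefoil peptide that is secreted with the mucin and takes part in repair of the epithelium, and it lies on chromosome 17 between 31125306 and 31129611. It had 347, 257, 314 and 341 CPM in the libraries labelled Ccna2-KO, against 641, 216, 330 and 151 CPM in the WT libraries. As for Zg16, the narrow range of the libraries labelled Ccna2-KO fell inside that of the WT libraries, and the log2 fold change was -0.09 ± 0.38 (adjusted p = 0.916). Its relative Tff1 was at 0 counts in all 8 libraries, which allows up to 3 counts a library, and Tff2 reached at most 7 counts.

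Agr2 encodes a protein disulfide isomerase of the endoplasmic reticulum that mucin production needs, and it lies on chromosome 12 between 35992925 and 36004081. It had 709, 936, 746 and 367 CPM in the libraries labelled Ccna2-KO, against 1614, 379, 522 and 566 CPM in the WT libraries. WT replicate 1 held more than any other library, and the other WT libraries lay at the lower end of the Ccna2-KO range. The log2 fold change was -0.16 ± 0.45 (adjusted p = 0.869), and without WT replicate 1 it was 0.50 (adjusted p = 0.234), of the opposite sign. Its relative Agr3 reached at most 44 counts in a library.

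Spdef, the ETS-family transcription factor of goblet cell maturation, lies on chromosome 17 between 27714446 and 27731003, on the minus strand. It had 77.5, 108, 77.8 and 40.3 CPM in the libraries labelled Ccna2-KO, against 125, 76.9, 106 and 106 CPM in the WT libraries. The ranges overlapped, with 3 of 4 libraries labelled Ccna2-KO below 3 of 4 WT libraries, and the log2 fold change was -0.45 ± 0.27 (adjusted p = 0.325). The transcript NM_013891.4 took 76.6% of its counts. A second transcript, XM_006524381.3, had 361, 546, 1.93 and 76.6 estimated counts in the libraries labelled Ccna2-KO, against 427, 246, 621 and 589 in the WT libraries. Ccna2-KO replicate 3 was near 0 for this transcript, while another one, XM_006524379.3, had its highest count there (493). Reads compatible with more than 1 transcript are shared out by the estimate, and the split is less certain than the gene's sum.

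Klk1 encodes tissue kallikrein, a secreted serine protease that releases kinins, and it lies on chromosome 7 between 44225360 and 44229622. It had 381, 495, 394 and 228 CPM in the libraries labelled Ccna2-KO, against 901, 282, 384 and 456 CPM in the WT libraries. WT replicate 1 again stood highest, and the remaining libraries overlapped. The log2 fold change was -0.43 ± 0.35 (adjusted p = 0.495) and 0.0042 without WT replicate 1. Of the 14 Klk1b symbols, close copies of Klk1 on the same chromosome, none passed 22 counts in any library, and together they came to 0.152% to 0.325% of the Klk1 count.

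Per kilobase of 1 annotated transcript a gene, the mean of Zg16 was the highest of the 7 genes with a matched length, and those of Spdef and Retnlb were the lowest. The whole count of each gene was divided by that length, and for Zg16 the transcript used, NM_026918.2, held 32.5% of the counts, so its level and rank assume that its other transcript has a like length. In the libraries labelled Ccna2-KO the means were 1954 ± 153 for Zg16, 879 ± 302 for Agr2, 638 ± 82.8 for Tff3, 392 ± 116 for Klk1, 190 ± 41.3 for Fcgbp, 176 ± 117 for Retnlb and 39.5 ± 14.4 for Spdef (CPM per kilobase; SD, n = 4). In the WT libraries they were 1794 ± 1166, 982 ± 725, 678 ± 441, 530 ± 286, 197 ± 71.6, 30.8 ± 26.0 and 53.9 ± 10.4 in the same order of genes. Agr2 and Tff3 did not differ beyond their spread in either group. Retnlb was near Fcgbp in the libraries labelled Ccna2-KO and below Spdef, on average, in the WT libraries. No length was matched for the Muc2 transcript, so its level per length is not given.

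The 8 genes did not vary together as 1 group. Among the 28 pairs, the closest in centred log2 CPM (each gene minus its mean over the 8 libraries) were Tff3 and Zg16, with a root mean square difference of 0.171, then Muc2 and Spdef (0.199) and Agr2 and Klk1 (0.235). Tff3, Fcgbp and Zg16 shared a profile in which Ccna2-KO replicate 4 lay above the mean, at 0.18, 0.41 and 0.29, and WT replicate 4 was the lowest library, at -0.99, -0.72 and -1.20. Muc2, Agr2, Spdef and Klk1 shared one in which Ccna2-KO replicate 4 was the lowest library, at -0.97, -0.83, -1.08 and -0.84, and WT replicate 4 lay between -0.21 and 0.31. WT replicate 1 was the highest library for each of these 7 genes. Retnlb was the farthest from every other member, with differences of 1.33 to 1.65. The measure is not scaled and grows with the size of a gene's changes, and Retnlb spanned from -1.81 to 2.40. These groups of genes were seen in the data and were given no test. The points share their library, and 4 of the 8 genes lie on chromosome 7 and 2 on chromosome 17.

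**Figure D2:**
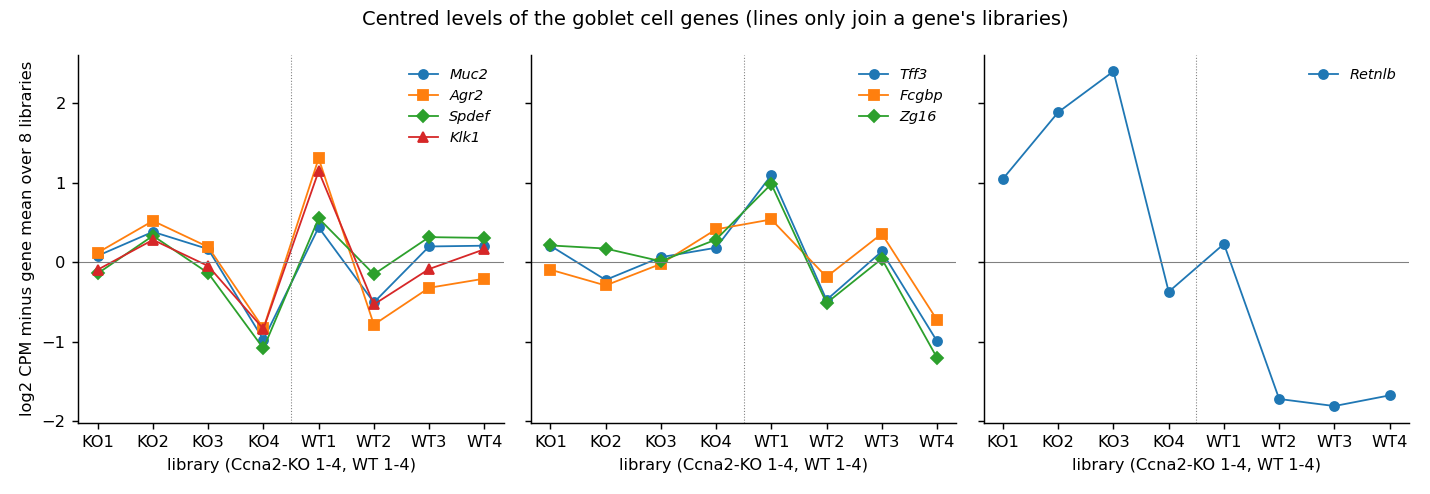
Centred log2 CPM of the goblet cell genes in Ccna2-KO replicates 1 to 4 (KO1 to KO4) and WT replicates 1 to 4 (WT1 to WT4), with lines that only join the values of 1 gene. Ccna2-KO replicate 4 was low for Muc2, Agr2, Spdef and Klk1 (-0.83 to -1.08) and not for Tff3, Fcgbp and Zg16 (0.18 to 0.41), and Retnlb spanned from -1.81 to 2.40.

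Within the number sets Muc2, Agr2, Spdef and Klk1 showed the pattern of their profiles again. They were lower in every library labelled Ccna2-KO than in every WT library of the same set, in both sets. This held for 4 of 8 members and for 19.6% of all genes tested. For these genes Ccna2-KO replicate 4 was the lowest library and WT replicate 1 the highest. Each is the only library of its genotype in its set. The order within the sets follows from that and is not a further result. Some gaps were narrow. In the low set Agr2 had 367 CPM in Ccna2-KO replicate 4 and 379 CPM in WT replicate 2. In the high set Muc2 had 9060 CPM in Ccna2-KO replicate 2 and 9416 CPM in WT replicate 1. In the high set the ratios of means were 0.857 for Muc2, 0.494 for Agr2, 0.699 for Spdef and 0.470 for Klk1, against a single WT library. In the low set, with a single library labelled Ccna2-KO, they were 0.508, 0.750, 0.418 and 0.609. Tff3, Fcgbp and Zg16 went opposite ways in the 2 sets, with ratios of 0.477, 0.629 and 0.555 in the high set and 1.47, 1.44 and 1.69 in the low set.

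With the set term in the fit, 4 of 8 members passed, against 18.2% of all genes tested, and 3 of 8 passed as lower, against 8.90%. Klk1 fell by 0.90 on the log2 scale (SE 0.18, adjusted p = 0.00864), Spdef fell by 0.88 (SE 0.22, adjusted p = 0.0229) and Agr2 fell by 0.72 (SE 0.18, adjusted p = 0.0245). Muc2 had -0.60 ± 0.24 and did not pass (adjusted p = 0.114). The set-adjusted values of Tff3, Fcgbp and Zg16 were -0.26 ± 0.36, -0.07 ± 0.29 and -0.05 ± 0.36. This term is estimated through Ccna2-KO replicate 4 and WT replicate 1, so effects of these single libraries cannot be told apart from an effect of the set.

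**Figure D3:**
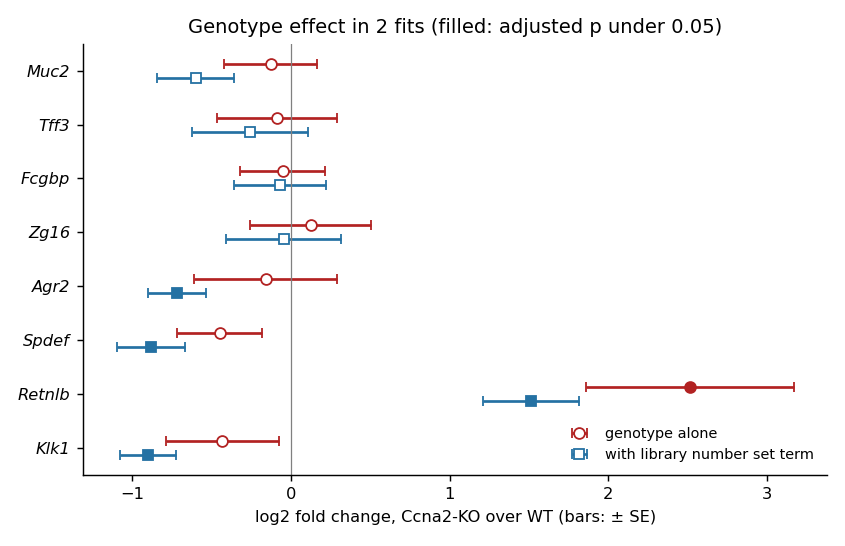
Log2 fold changes of the 8 genes, Ccna2-KO over WT, with bars of 1 SE, in the fit with genotype alone (red circles) and with the library number set term (blue squares), filled where the adjusted p was under 0.05. Retnlb passed in both fits (2.51 and 1.51), and Agr2, Spdef and Klk1 passed with the set term (-0.72, -0.88 and -0.90).

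Relative to Muc2 in the same library, Spdef was lower and Retnlb higher in every library labelled Ccna2-KO than in every WT library. Spdef had 10.5, 11.9, 9.98 and 11.4 counts per 1000 Muc2 counts in the libraries labelled Ccna2-KO, against 13.3, 15.7, 13.3 and 13.2 in the WT libraries. Retnlb had 11.7, 16.9, 28.1 and 9.04 counts per 1000 Muc2 counts in the libraries labelled Ccna2-KO, against 5.16, 2.56, 1.48 and 1.61 in the WT libraries. Such a lack of overlap in the ratio to Muc2 held for these 2 of the other 7 members, and for 8.22% of all genes tested. Agr2 had 95.7 to 104 counts per 1000 Muc2 counts in the libraries labelled Ccna2-KO, against 65.5 to 77.4 in WT replicates 2, 3 and 4 and 171 in WT replicate 1. Klk1 (50.5 to 64.3, against 48.1 to 95.7), Tff3 (28.4 to 96.2, against 18.8 to 68.0), Fcgbp (133 to 557, against 111 to 266) and Zg16 (137 to 380, against 59.7 to 231) overlapped, with Ccna2-KO replicate 4 the highest of its group for each of the 4. The ratios are descriptions and were not tested.

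**Figure D4:**
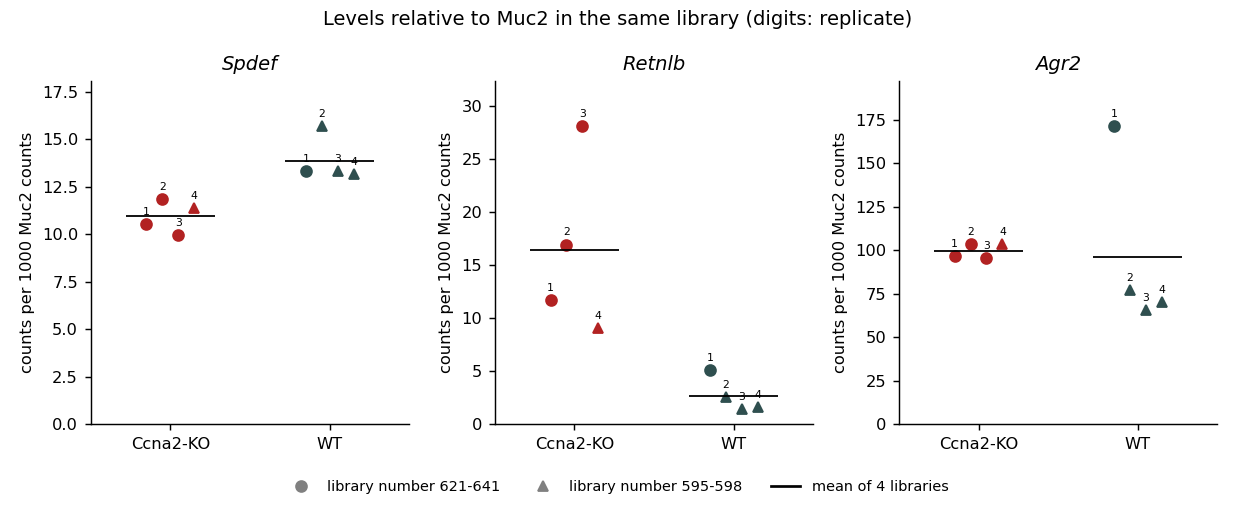
Counts of Spdef, Retnlb and Agr2 per 1000 Muc2 counts of the same library, on linear axes from 0, with symbols as in the plot of levels by library. Spdef lay at 9.98 to 11.9 in the libraries labelled Ccna2-KO and at 13.2 to 15.7 in the WT libraries, and Retnlb at 9.04 to 28.1 in the libraries labelled Ccna2-KO and at 1.48 to 5.16 in the WT libraries.

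Muc2, Agr2, Spdef and Klk1 were each lowest in Ccna2-KO replicate 4. Their profiles were not alike throughout, and Agr2 differed from Muc2 by 0.405 and from Spdef by 0.489 (root mean square). By the same measure Fcgbp and Zg16, of the other profile, differed by 0.346. The 250 bases before an annotated start of Muc2, Agr2, Spdef and Klk1 are shown, with those of Fcgbp. The sequences are from RefSeq on GRCm38.p6, read on the strand of the gene, 5′ to 3′, and 5 of the 8 members had an entry. They lie at chr7:141690090-141690339, chr12:35992675-35992924, chr17:27728952-27729201 (minus strand), chr7:44225110-44225359 and chr7:28070986-28071235. Capitals mark matches, on either strand, to any of 3 motifs. The TATA box was searched as TATAAA. Krüppel-like factors such as Klf4, a goblet cell regulator, bind CACCC, and the Spdef recognition site was searched as CCGGAT.
Muc2: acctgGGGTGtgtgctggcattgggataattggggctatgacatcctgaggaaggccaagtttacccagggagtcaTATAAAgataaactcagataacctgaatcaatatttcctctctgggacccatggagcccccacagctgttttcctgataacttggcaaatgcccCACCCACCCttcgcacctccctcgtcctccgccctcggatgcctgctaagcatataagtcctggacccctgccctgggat
Agr2: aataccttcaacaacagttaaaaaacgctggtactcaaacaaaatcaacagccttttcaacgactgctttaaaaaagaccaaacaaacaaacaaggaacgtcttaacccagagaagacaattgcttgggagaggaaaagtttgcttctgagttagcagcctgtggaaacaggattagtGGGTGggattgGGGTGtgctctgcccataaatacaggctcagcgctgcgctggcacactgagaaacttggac
Spdef: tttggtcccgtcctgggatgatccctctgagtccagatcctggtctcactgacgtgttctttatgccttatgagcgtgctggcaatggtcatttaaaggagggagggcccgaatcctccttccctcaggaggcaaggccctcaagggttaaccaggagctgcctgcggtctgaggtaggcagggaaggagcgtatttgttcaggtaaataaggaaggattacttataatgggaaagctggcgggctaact
Klk1: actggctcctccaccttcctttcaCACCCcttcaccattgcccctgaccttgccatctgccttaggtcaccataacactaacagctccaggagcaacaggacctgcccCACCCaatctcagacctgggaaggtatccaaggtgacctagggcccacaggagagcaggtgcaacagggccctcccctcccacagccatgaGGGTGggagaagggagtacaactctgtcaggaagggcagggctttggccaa
Fcgbp: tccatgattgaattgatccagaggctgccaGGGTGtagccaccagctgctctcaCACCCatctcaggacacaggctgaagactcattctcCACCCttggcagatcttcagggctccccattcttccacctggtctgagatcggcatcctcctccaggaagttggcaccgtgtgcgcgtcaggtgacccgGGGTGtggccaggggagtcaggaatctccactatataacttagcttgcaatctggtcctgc
CACCC was found in 4 of these 5 windows, all but that of Spdef, and in 52% of all 32851 windows of the same length. TATAAA was found in the Muc2 window, 174 to 169 bases before the start, and in 12.4% of all windows. Only these exact letters were searched. Similar stretches, such as atataag in the Muc2 window and atataac in the Fcgbp window, are not marked or counted. CCGGAT was in none of the 5 windows and in 4.94% of all. In the Muc2 window 2 of its 3 CACCC matches overlapped by 1 base, and no match of one motif overlapped one of another. A match describes letters only.

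Of 22 other goblet cell products tested, 3 rose and 1 fell, with a median log2 fold change of -0.17, where the median over all genes tested was -0.015. Over all 15893 genes tested, 1017 were called higher and 907 lower, and set-adjusted 1477 were higher and 1415 lower. The calls in this list and the lists that follow stand beside these counts. Without Ccna2-KO replicate 1, 2 or 3 or WT replicate 2, 3 or 4 only 1 gene of the list rose, and without WT replicate 1 there were 6. Itln1, an intelectin that binds microbial sugars, had 4.38, 2.76, 2.37 and 0.784 CPM in the libraries labelled Ccna2-KO, against 0.592, 0.519, 0.430 and 0.303 CPM in the WT libraries. Its groups did not overlap, and it rose by 2.48 ± 0.49 (adjusted p = 0.0115). Ang4, an antibacterial ribonuclease, had 35.3, 37.8, 28.9 and 10.9 CPM in the libraries labelled Ccna2-KO, against 15.6, 6.38, 5.47 and 3.57 CPM in the WT libraries. It rose by 1.87 ± 0.50 (adjusted p = 0.0392), with Ccna2-KO replicate 4 the lowest of its group, as for Retnlb. Ang4 belongs to a family of similar ribonuclease genes, so reads may be shared.

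Reg4, a secreted lectin-like protein that also marks deep crypt secretory cells, had 52.3, 59.3, 82.0 and 29.3 CPM in the libraries labelled Ccna2-KO, against 29.3, 13.4, 14.7 and 25.8 CPM in the WT libraries. It rose by 1.42 ± 0.34 (adjusted p = 0.0270), and its set-adjusted value was 0.92 (adjusted p = 0.0523). Sct, which encodes the hormone secretin and is a goblet cell gene only by the list, had 6.84 to 7.86 CPM across libraries labelled Ccna2-KO and 9.93 to 13.1 CPM in the WT libraries. It fell by 0.66 on the log2 scale (SE 0.13, adjusted p = 0.0132), and no gene of the list fell without Ccna2-KO replicate 1 or 3. Set-adjusted, 2 genes of the list were higher (Ang4 and Itln1) and 4 were lower (Sct, Ccl6, Tpsg1 and Slc12a8).

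Of 15 transcription factors tested from the list of secretory and goblet factors, 3 fell and 0 rose, with a median of -0.46. The list is not limited to genes that promote secretory fate, and Hes1 is among those that do not. Atoh1, which commits crypt cells to secretory fates, had 31.0, 30.2, 32.0 and 19.3 CPM in the libraries labelled Ccna2-KO, against 56.4, 39.8, 46.6 and 38.8 CPM in the WT libraries. All 4 values lay below every WT value, and Atoh1 fell by 0.69 on the log2 scale (SE 0.18, adjusted p = 0.0391). Xbp1, which expands the secretory endoplasmic reticulum, had 157 to 172 CPM across libraries labelled Ccna2-KO, against 202 to 252 CPM in the WT libraries, and fell by 0.46 (SE 0.10, adjusted p = 0.0195). Foxa1, a forkhead factor upstream of goblet cell genes, fell by 0.52 (SE 0.14, adjusted p = 0.0405). Set-adjusted, 9 of the 15 were lower (Atoh1, Gfi1, Foxa1, Foxa2, Creb3l1, Creb3l4, Xbp1, Hes1 and Cbfa2t3) and 0 higher. Of all genes tested, 8.90% were lower in that fit. In the fit with genotype alone, 0 of the 15 fell without Ccna2-KO replicate 1, 2 or 3 or WT replicate 4, 1 fell without WT replicate 2, and 5 fell without WT replicate 1.

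Of 25 genes of folding in the endoplasmic reticulum 0 passed in edgeR, with a median of 0.02. At an unadjusted p under 0.05 there were 3, Agr3, P4hb and Sdf2l1, and 1 gene of the list was called higher by DESeq2, by limma voom, and by edgeR with RLE scaling, a filter of 1 CPM or a non-robust estimate. Without WT replicate 1, 3 were higher and 1 lower, and set-adjusted 5 were lower. The 2 most abundant, Hspa5 (the chaperone BiP) and P4hb (a protein disulfide isomerase), averaged 1260 ± 354 and 890 ± 104 CPM in the libraries labelled Ccna2-KO, against 1717 ± 486 and 667 ± 49.4 CPM in the WT libraries. Of 23 genes of granule release and mucus processing 1 rose and 1 fell, with a median of -0.07. Mep1b, a subunit of the protease meprin that cleaves Muc2, rose by 0.70 ± 0.18 (adjusted p = 0.0370), with 278 to 373 CPM across libraries labelled Ccna2-KO and 165 to 266 CPM in WT. Sytl4, a granule docking protein, fell by 0.53 (SE 0.13, adjusted p = 0.0245). With 1 library left out, 0 to 2 of the 23 rose and 0 to 2 fell, and without Ccna2-KO replicate 1, 3 or 4 neither did. Set-adjusted, 4 rose and 2 fell.

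Of 20 genes of mucin O-glycosylation 3 rose and 0 fell, with a median of -0.02. Gcnt1, which starts core 2 branches, had 68.3, 58.4, 63.5 and 55.1 CPM in the libraries labelled Ccna2-KO, against 26.7, 22.6, 26.4 and 9.63 CPM in the WT libraries, and rose by 1.52 ± 0.28 (adjusted p = 0.00851). B3galt5, a galactosyltransferase, rose by 0.84 ± 0.16 (adjusted p = 0.00947) and Fut2, the fucosyltransferase of secreted glycans, by 0.57 ± 0.14 (adjusted p = 0.0272). Without WT replicate 1, 5 of the 20 rose and 3 fell, and set-adjusted 4 rose and 2 fell.

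**Figure D5:**
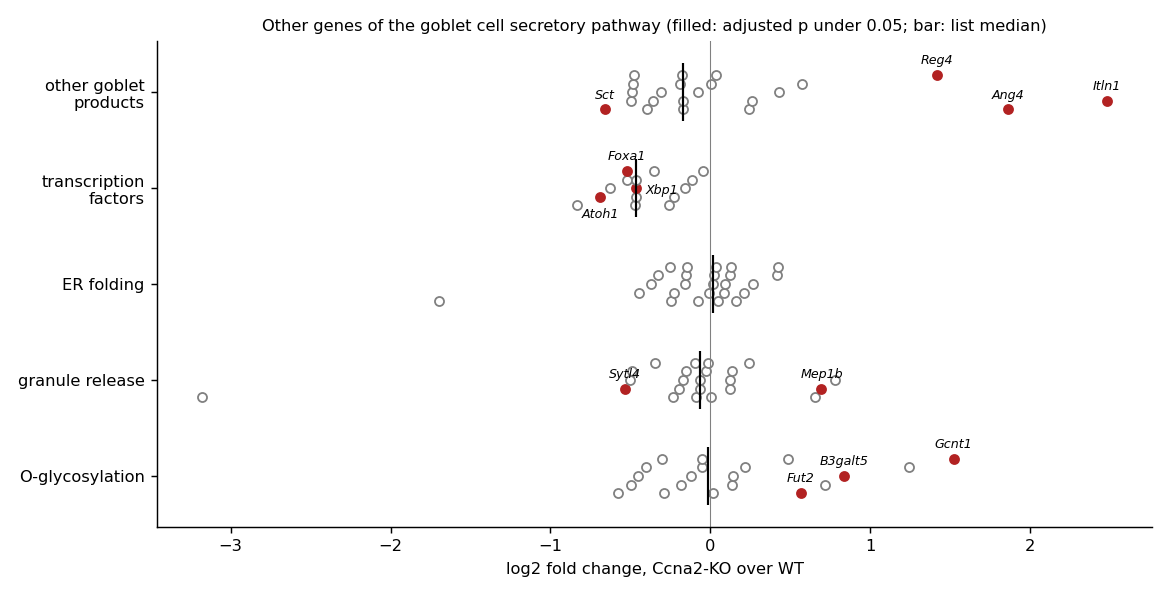
Log2 fold changes, Ccna2-KO over WT, of the tested genes in 5 lists of the goblet cell secretory pathway, 1 point a gene, filled red where the adjusted p was under 0.05, with a bar at each list's median. Medians lay between -0.46 (transcription factors) and 0.02 (folding in the endoplasmic reticulum), and Itln1, Ang4, Gcnt1 and Reg4 were the called genes farthest to the right.

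Of 14 listed genes of type 2 immune signalling, which is known to act on Retnlb, 7 passed the filter on low counts, and 1 of these, the alarmin Il33, rose (2.06 ± 0.43, adjusted p = 0.0154), with 1.62 to 5.71 CPM across libraries labelled Ccna2-KO against 0.557 to 1.26 CPM in WT. The receptor chains Il4ra and Il13ra1 and the factor Stat6 had log2 fold changes of -0.04 ± 0.20, -0.04 ± 0.11 and -0.27 ± 0.14, and none passed. The cytokines Il25 and Tslp were at 0 to 0.209 CPM. Without WT replicate 1, 1 gene of the list fell, and set-adjusted 1 rose and 0 fell.

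Markers of other cell types differed between the groups along with these genes, and their part in the changes was not tested. T cell markers fell in 13 of 13 tested, with Ccl5, Cd2, Cd3g and Cd3e at the smallest adjusted p (-3.40 ± 0.42, -2.93 ± 0.43, -2.84 ± 0.42 and -2.91 ± 0.45), and the 14 markers summed to 15.0 to 31.4 CPM across libraries labelled Ccna2-KO and 46.6 to 217 CPM in the WT libraries. Cycling cell markers rose in 5 of 14 (14 without WT replicate 1), among them Mki67, Rrm2, Top2a and Cenpf (1.55, 2.85, 1.65 and 0.92), and summed to 775 to 1171 CPM across libraries labelled Ccna2-KO and 347 to 768 CPM in the WT libraries. WT replicate 1, the WT library with the highest Retnlb, held the WT maximum of the cycling sum and the WT minimum of the T cell sum. Set-adjusted, 9 of 13 T cell markers fell and 8 of 14 cycling cell markers rose.

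Of the other secretory types, enteroendocrine markers fell in 6 of 10 (Chgb, Chga, Tph1 and Neurod1 by smallest adjusted p) and tuft cell markers in 5 of 10 (among them Trpm5, Plcb2 and Sh2d6). The enteroendocrine sum was 53.0 to 72.1 CPM across libraries labelled Ccna2-KO, against 178 to 305 CPM in WT. The tuft cell sum was 12.5 to 16.5 CPM across libraries labelled Ccna2-KO, against 20.3 to 36.6 CPM in WT. Set-adjusted, 8 of 10 fell in each of these 2 lists. Of 9 genes listed for deep crypt secretory cells Mmp7 rose (4.86 ± 0.55), and Dll1 (-1.66 ± 0.16) and Mptx1 (-6.84 ± 1.87) fell. Not all genes of the list are specific to these cells. Kit (-0.72 ± 0.25, adjusted p = 0.0951) and Cd24a (0.37 ± 0.36, adjusted p = 0.580) of the same list did not pass in the main edgeR fit. Set-adjusted, Kit was lower (-1.12, adjusted p = 0.00677) and Cd24a did not pass. Mptx1, a mucosal pentraxin, had 0.062 to 0.863 CPM across libraries labelled Ccna2-KO, against 216, 1.44, 16.3 and 0.636 CPM in the WT libraries, so WT replicates 1 and 3 carried its level. Only 1 marker of this list fell when any library other than WT replicate 2 or 4 was left out, and set-adjusted 1 rose and 4 fell. Of 14 colonocyte markers Slc37a2 fell (-3.49 ± 0.67) and 0 rose, while set-adjusted 4 rose (Car1, Ceacam20, Slc26a2 and Emp1) and Slc37a2 fell. Of 12 stem cell markers Axin2 rose while Lgr5 and Smoc2 fell. Without WT replicate 1 or 3, 1 colonocyte marker rose. A single stem cell marker fell without Ccna2-KO replicate 2, and 2 rose without Ccna2-KO replicate 4 or WT replicate 1. Set-adjusted, 1 stem cell marker rose and 4 fell.

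Macrophage and dendritic cell markers (12 tested, Cd68 and Mrc1 higher, Itgax and Fcer1g lower) summed to 21.4 to 28.2 CPM across libraries labelled Ccna2-KO, against 24.3 to 39.3 CPM in WT. Fibroblast and smooth muscle markers (7 tested, Des higher) summed to 17.6 to 47.5 CPM across libraries labelled Ccna2-KO, against 16.1 to 31.2 CPM in WT. B and plasma cell markers (2 tested, Jchain and Ms4a1, 0 called) summed to at most 2.67 CPM and mast cell and eosinophil markers (3 tested, Siglecf lower) to at most 9.0 CPM in any library. Of the T cell markers Cd4 stayed below the filter. With 1 library left out, macrophage and dendritic cell calls ranged from 0 to 2 higher and 0 to 3 lower, and 1 mast cell or eosinophil marker was lower without Ccna2-KO replicate 3 or WT replicate 1 and 0 without any other. Set-adjusted, none of Cd68, Mrc1, Itgax, Fcer1g and Siglecf passed (adjusted p = 0.0532 to 0.162), while the macrophage marker Cd14 was lower (-1.06, adjusted p = 0.00288) and Des was still called higher. The epithelial markers Epcam, Krt8, Krt18, Krt19, Cdh1, Vil1 and Cdx2 were present in every library, and 0 of these 7 passed.

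The 8 genes closest to the mean centred profile of the members, out of 9491 with a mean log2 CPM of at least 3, were Tmem176b, Ttc39a, Ptp4a3, Lsm3, Hopx, Eid1, Wbp5 and Impdh2. Their root mean square differences from that profile over the 8 libraries were 0.132 to 0.158, and none of the 8 passed the test between the groups (adjusted p = 0.580 to 0.959). The mean profile was highest in WT replicate 1 (0.79) and lowest in WT replicate 2 (-0.61). This mean is not scaled, and Retnlb, with the widest span, weighs most on it. In Ccna2-KO replicate 3 Retnlb lay at 2.40 and the mean at 0.33, while the other members lay between -0.14 and 0.19. Genes close to the mean therefore need not follow the other members.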

How the data were processed

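RNA sequencing reads of the 8 libraries were quantified on mouse transcripts with kallisto, per the submitters' processing notes, which also name the builds GRCm38 and mm10. The deposited table holds estimated counts for 107193 transcripts in each library. Rows without a gene symbol (687, 3.19% to 5.51% of counts) were left out, the rest were summed per symbol and rounded, and 25960207 to 33028513 gene counts a library remained. Groups came from the labels. Genes passing filterByExpr were tested with edgeR 4.0.16 (quasi-likelihood, robust, TMM scaling, R 4.3.3), with Benjamini-Hochberg adjustment over 15893 genes and an adjusted p of 0.05 as threshold. Fold changes are log2, Ccna2-KO over WT. Positions and promoter windows are RefSeq's on GRCm38.p6, and transcript lengths are GENCODE's. The fit with genotype alone was run on simulated counts with known changes. These held no effect of the library number set and no outlying library, so the set-adjusted fit was not covered. Alternatives were DESeq2 1.42.0, limma voom 3.58.1, other scalings and filters, a library number set term, a replicate block, the main transcript alone and each library left out.

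The members and the 17 gene lists were chosen with earlier results of these data known. Named are all 8 members, at most 4 called genes a list by smallest adjusted p (where none passed, the 2 with the highest mean CPM), the 8 genes closest to the members' mean profile and relatives that could share reads. Other genes were named after their values were seen, and 1 gene of the rule is not reported here.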

Additional observations from a re-analysis of the deposited data

Results flagged for a closer look

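A single library stood apart from the other 3 of its group in 13 of 126 groups of 4 checked, by Dixon's criterion. For unselected genes, chance meets this criterion in about 1 in 20 groups. The genes checked were selected, and some were chosen for likeness to the members' mean profile, which is highest in WT replicate 1. Of these, Tmem176b, Ptp4a3, Lsm3, Hopx and Eid1 were flagged, so the count cannot be compared with chance. Of the members, Retnlb was flagged, with 48.6 CPM in WT replicate 1 against 11.8 to 12.9 CPM in the other WT libraries. Atoh1 had 19.3 CPM in Ccna2-KO replicate 4, where the other libraries labelled Ccna2-KO had 30.2 to 32 CPM.

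WT replicate 1 was also the library that stood apart for 7 further genes. It was high for the folding enzyme P4hb (741 CPM, others 639 to 648), the cycling gene Rrm2 (18.7 CPM, others 6.94 to 7.42), and the profile genes Tmem176b (51.5 CPM, others 20.9 to 24.4), Ptp4a3 (15.3 CPM, others 7.58 to 8.33), Lsm3 (20.1 CPM, others 7.22 to 8.24) and Hopx (27.1 CPM, others 11.9 to 13). It was low for the plasma cell gene Jchain (0.209 CPM, others 0.576 to 0.678).

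The remaining flags fell on other libraries. The glycosyltransferase Gcnt1 had 9.63 CPM in WT replicate 4 (others 22.6 to 26.7), and the enteroendocrine gene Chgb had 71.7 CPM in WT replicate 2 (others 101 to 104). Neurod1 had 0.24 CPM in Ccna2-KO replicate 2 (others 0.539 to 0.593), and Eid1 had 8.63 CPM in Ccna2-KO replicate 4 (others 14 to 14.6).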

How the results depend on the processing

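The count of all genes called, 1924, was 2948 with DESeq2, 2892 with the number set term and 987 with the replicate block. It was 4629 without WT replicate 1 and 972 to 1719 without any other single library. Over all genes, WT replicate 1 differed from the other WT libraries by a chi-square per degree of freedom of 132 to 160. Those differed from each other by 21.5 to 46.2. From the libraries labelled Ccna2-KO, WT replicate 1 differed by 111 to 179. Members called numbered 0 with no filter, 0 with the replicate block, 4 with the set term, and 0 to 1 with a library left out. Retnlb kept its sign under all 19 settings but did not pass with no filter (2.52, adjusted p = 0.136), the replicate block (2.48, 0.0669) or its transcript tested alone (2.52, 0.197), and its log2 fold change ranged from 2.08 to 3.31 with a library left out. With the set term Agr2 (-0.72), Spdef (-0.88) and Klk1 (-0.90) passed. Sign reversals were Tff3 at 0.12 with voom and 0.11 with the block, Fcgbp at 0.0071 with voom, and Zg16 at -0.047 with the set term. Leaving out 1 library gave ranges of -0.29 to 0.092 for Muc2, -0.33 to 0.44 for Tff3, -0.24 to 0.14 for Fcgbp, -0.13 to 0.65 for Zg16, -0.39 to 0.50 for Agr2, -0.63 to 0.0042 for Klk1 and -0.67 to -0.24 for Spdef. The cause of these changes was not tested. Same-numbered replicates of the groups had correlations of their deviations of -0.0694, -0.352, -0.263 and 0.153. These values do not show a pairing. They cannot exclude one either, because the deviations also hold differences between the number sets. The labels do not say that the replicate numbers pair libraries, so the replicate block is an alternative only.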

Other observations

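Best2, a bestrophin anion channel of colonic goblet cells, had 0.910, 1.08, 0.531 and 0.549 CPM in the libraries labelled Ccna2-KO, against 21.8, 1.68, 3.23 and 1.30 CPM in the WT libraries. The groups did not overlap, yet its log2 fold change of -3.18 ± 0.91 missed the threshold (edgeR adjusted p = 0.0521), and it passed with the set term (0.00353). It was picked out after its values were seen, and WT replicate 1 held most of the WT signal. Clca1, an abundant secreted goblet cell metalloprotease, had 619, 522, 524 and 747 CPM in the libraries labelled Ccna2-KO, against 1574, 547, 901 and 340 CPM in the WT libraries. Like Tff3, Fcgbp and Zg16, it was highest in WT replicate 1 and lowest in WT replicate 4, with a log2 fold change of -0.48 ± 0.40 (adjusted p = 0.503). Spink4, a goblet cell protease inhibitor, had 259, 343, 354 and 120 CPM in the libraries labelled Ccna2-KO, against 441, 71.4, 91.9 and 118 CPM in the WT libraries. Ccna2-KO replicate 4 was the lowest of its group there, as for Agr2 and Klk1, and WT replicate 1 the highest of all (0.57 ± 0.57, adjusted p = 0.585).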
